A study of Mus musculus with 7 samples.

Results

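Integrins, matrix proteases and serpins were followed through 6 days of retinoic acid treatment of mouse embryonic stem cells. The genes were taken by symbol from the deposited table: every symbol that began with Itga, Itgb, Adam (which takes in Adamts and Adamtsl), Mmp or Timp with a digit, or Serpin. This gave 77 of the 12071 symbols, from 95 of the 15296 transcript rows, and each symbol was represented by its row with the highest mean over the 7 libraries. They comprised 22 integrin names, 12 Adam, 18 Adamts, 10 Mmp, 3 Timp and 12 Serpin genes. The integrin names held 15 α subunits and 5 β subunits. Itgb1bp1, an adaptor that binds the tail of a β subunit, and Itgb3bp, a centromere protein, matched by name and are no subunits.

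The cells were CCE, an established mouse embryonic stem cell line grown on gelatin without feeder cells. Day 0 cells had leukemia inhibitory factor (LIF), which holds such cells undifferentiated, together with the vehicle DMSO. On days 1 to 6 the cells had 5 µM retinoic acid, an activator of nuclear receptors, and no LIF. Total RNA depleted of ribosomal RNA was sequenced in 1 library a day, so no day had a replicate, and nothing in the labels tells if each day was its own culture. Loss of LIF, retinoic acid and days in culture changed together and cannot be told apart. All results rest on 1 line.

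Integrins are receptors of an α and a β subunit that attach cells to laminins, fibronectin, collagens and other matrix proteins. Adams are membrane proteases that release the outer parts of other membrane proteins, Adamts enzymes are secreted and cut proteoglycans and procollagens, Mmps digest matrix, and Timps inhibit these metalloproteases. Most serpins trap serine proteases such as the plasminogen activators, while Serpinh1 is a chaperone of procollagen in the endoplasmic reticulum. Stem cells treated with retinoic acid are known to form adherent cell types, among them extraembryonic endoderm, that lay down basement membrane.

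The deposited values are log2 normalized reads, that is, whole read counts of a transcript multiplied by 1 factor per library, with no division by length. The listed transcripts had 10280938, 11462785, 11198956, 9911246, 17923852, 16503844 and 7194325 reads on days 0, 1, 2, 3, 4, 5 and 6. Reads of single genes are given below as counted, so they also move with depth, and days 4 and 5 were the deepest. Every fold is of the normalized values and need not match the ratio of the reads beside it. Of the 8 markers of undifferentiated stem cells, 6 were at least 4-fold lower on day 5 than on day 0, beside 4.66% of all symbols. Klf4 and Tbx3 were not, with log2 values of 10.34 and 11.08 on day 5 against 11.93 and 11.42 on day 0. The summed level of the 8 was 4339 normalized reads on day 5, against 70717 on day 0. Day 6 stood apart: over the 7242 genes kept by a filter on low values, its difference from day 5 fell with transcript length (Spearman rho −0.78), so it is described at the end. The difference of day 5 from day 0 had a rho of 0.25 with length over those genes and of 0.047 over the 77 genes. In bulk RNA, fewer cells of a type and less RNA per cell cannot be told apart.

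Most of the genes that changed over days 0 to 5 rose. With limma, the log2 values of the 6 libraries were fitted by a line on day, with Benjamini-Hochberg adjustment over the 7242 genes kept, so the spread about the line is the error. The filter asked for a mean log2 value above 8.40 and kept 29 of the 77 genes, and 7242 of all 12071 symbols. Among these 29, 18 rose and 4 fell at an adjusted p under 0.05. That is 62.1% rising and 13.8% falling, against 25.7% rising and 26.8% falling of all 7242 genes. Since a gene can pass the filter through the days on which it is high, the fit was also made without it: 34 of the 77 rose, 44.2% against 25.9% of all 12071 symbols, and 11 fell, 14.3% against 22.1%. The median slope of the 29 genes was 0.36 log2 units a day, and that of the 7242 genes was −0.0012. Of the 22 called genes, 12 stayed called over days 0 to 5 in every other setting in which they were kept, of 15 settings that include leaving out each library. They were Adam10, Adam23, Adamts9, Adamts10, Itgav, Itgb1, Itgb5, Mmp2, Serpine2, Serpinh1, Timp2 and Timp3. With day 6 in the fit, 1 of the 29 rose and 1 fell, as set out at the end. Without 1 library, 16 to 18 of them rose and 2 or 3 fell: the falling count was 2 without day 0, day 1, day 3, day 4 or day 5.

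Single days have 1 library each and were compared by size. On day 5, 24 of the 77 genes were at least 4-fold higher than on day 0, which is 31.2%, against 12.7% of all symbols. Another 4 were at least 4-fold lower, 5.19% against 4.66% of all symbols. The median difference of day 5 from day 0 was 0.97 log2 units for the 77 genes and 0.13 for all symbols. By family it was 4.86 for the 3 Timps, 1.92 for the Adamts genes, 1.43 for the serpins, 1.12 for the Mmps, 0.31 for the Adams and 0.17 for the integrin names. The exact binomial 95% counting interval of the difference lay above 0 for 46 genes and below 0 for 19. Over all symbols these intervals were not computed. Such intervals cover counting error only, because reads that carry no molecular identifier may copy 1 molecule, and the spread between cultures was not measured.

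**Figure D1:**
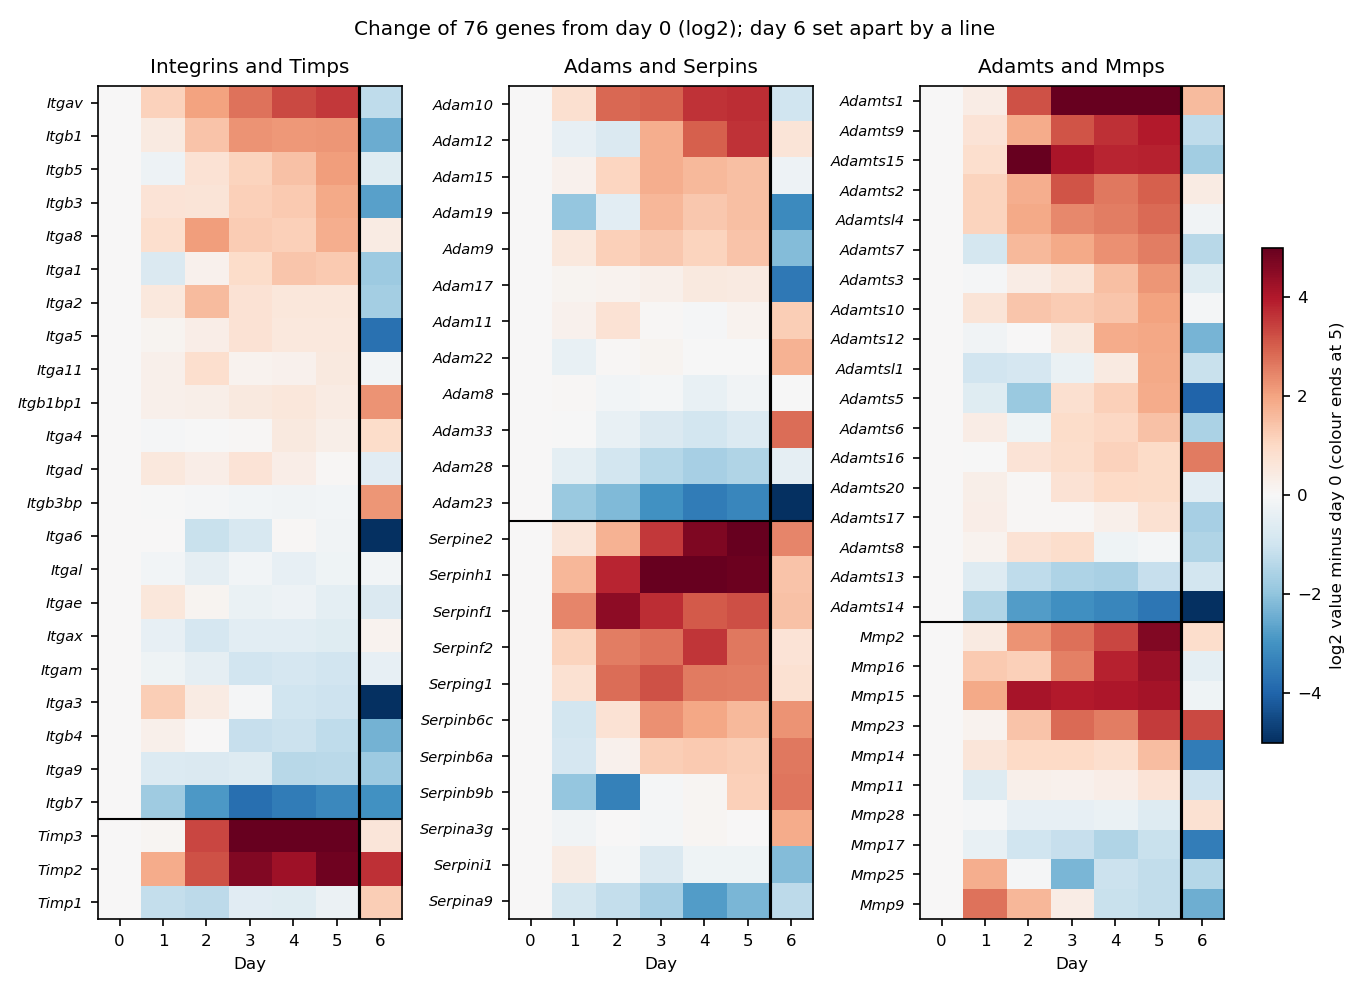
Difference of each day from day 0, in log2 units, for the genes of each family, with 1 library a day and day 6 set apart by a line; colours end at 5 units. Adamts1, Serpine2, Timp3, Serpinh1 and Timp2 are the darkest red on day 5, Adamts14, Adam23 and Itgb7 the darkest blue, and most genes turn blue on day 6.

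Promoter sequences from RefSeq (GRCm38.p6) could be matched to 51 of the 77 symbols, as 56 promoters of 250 bases up to the annotated start. They are shown for 8 genes with large changes, so that rising and falling genes can be compared. Serpinh1, Timp2, Timp3, Serpine2, Adamts1 and Itgav rose, and Adam23 and Itgb7 fell. Capitals mark matches to the motifs searched, on either strand.
Serpinh1, chr7:99353240-99353489, minus strand: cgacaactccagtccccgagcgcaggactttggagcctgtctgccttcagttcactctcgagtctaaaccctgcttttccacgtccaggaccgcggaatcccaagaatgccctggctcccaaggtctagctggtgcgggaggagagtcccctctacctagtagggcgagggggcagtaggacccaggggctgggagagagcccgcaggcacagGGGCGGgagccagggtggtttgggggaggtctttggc
Timp2, chr11:118355412-118355661, minus strand: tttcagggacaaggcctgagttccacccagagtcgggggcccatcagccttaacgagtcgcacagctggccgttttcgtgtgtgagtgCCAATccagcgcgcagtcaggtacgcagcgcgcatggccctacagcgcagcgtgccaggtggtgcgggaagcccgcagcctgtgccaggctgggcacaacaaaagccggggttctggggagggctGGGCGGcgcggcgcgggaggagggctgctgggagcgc
Timp3, chr10:86300162-86300411, plus strand: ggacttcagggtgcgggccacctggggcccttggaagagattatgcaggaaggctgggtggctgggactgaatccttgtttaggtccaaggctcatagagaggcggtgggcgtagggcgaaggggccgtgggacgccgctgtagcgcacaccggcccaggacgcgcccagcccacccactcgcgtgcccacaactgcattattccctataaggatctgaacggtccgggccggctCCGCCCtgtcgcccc
Serpine2, chr1:79858666-79858915, minus strand: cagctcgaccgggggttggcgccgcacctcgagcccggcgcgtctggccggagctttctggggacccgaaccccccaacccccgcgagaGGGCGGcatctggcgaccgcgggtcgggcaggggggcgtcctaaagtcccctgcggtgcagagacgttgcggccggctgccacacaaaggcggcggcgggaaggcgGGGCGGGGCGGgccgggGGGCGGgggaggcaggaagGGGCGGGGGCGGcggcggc
Adamts1, chr16:85803114-85803363, minus strand: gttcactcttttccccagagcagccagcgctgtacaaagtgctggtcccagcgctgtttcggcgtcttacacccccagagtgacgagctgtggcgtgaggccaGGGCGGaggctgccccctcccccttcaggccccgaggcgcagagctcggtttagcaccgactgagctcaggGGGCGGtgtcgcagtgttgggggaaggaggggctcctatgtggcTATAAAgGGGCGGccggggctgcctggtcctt
Itgav, chr2:83724147-83724396, plus strand: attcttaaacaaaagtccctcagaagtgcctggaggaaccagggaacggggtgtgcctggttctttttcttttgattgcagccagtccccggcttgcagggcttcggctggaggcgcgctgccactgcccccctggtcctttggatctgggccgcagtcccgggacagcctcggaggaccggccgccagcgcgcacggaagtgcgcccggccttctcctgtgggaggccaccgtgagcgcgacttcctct
Adam23, chr1:63445641-63445890, plus strand: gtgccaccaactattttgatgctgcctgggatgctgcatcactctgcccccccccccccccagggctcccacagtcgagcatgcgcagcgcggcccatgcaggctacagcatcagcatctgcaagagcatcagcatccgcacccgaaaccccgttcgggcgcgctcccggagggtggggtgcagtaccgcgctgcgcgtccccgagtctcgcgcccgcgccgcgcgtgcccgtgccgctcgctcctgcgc
Itgb7, chr15:102231936-102232185, minus strand: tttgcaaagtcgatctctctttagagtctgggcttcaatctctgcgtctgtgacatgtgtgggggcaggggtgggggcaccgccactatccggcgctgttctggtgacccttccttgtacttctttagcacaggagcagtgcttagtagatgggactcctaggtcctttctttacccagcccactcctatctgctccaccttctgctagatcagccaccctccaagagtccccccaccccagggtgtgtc

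The motifs searched were the TATA box TATAAA, the GC box GGGCGG, the CCAAT box CCAAT, the AP-1 site TGANTCA, the heat shock element core GAANNTTC, the retinoid half-site AGGTCA, the direct repeat of that half-site with a spacer of 5 bases, and the GATA site AGATAA. Matches may overlap, as in Serpine2, and the half-site is part of the repeat. A GC box was present in 30 of the 56 promoters, 53.6%, against 32.7% of the 32851 promoters in the table. It was present in 13 of the 15 promoters of genes called rising and in 3 of the 5 of genes called falling. Promoters and not genes were counted, and Itga3 among the falling genes and Serpinb6a among the rising ones had more than 1. The 56 promoters were also richer in G and C, with a median of 61.6% against 52.4% over all. The part of base composition in the GC box count was not tested. Serpine2 had 6 GC boxes, Adamts1 3, and Serpinh1, Timp2 and Timp3 1 each, while the windows of Itgav, Adam23 and Itgb7 held none of the letters searched. TATAAA was found in 1 of the 56, that of Adamts1, starting 32 bases before the start, against 12.4% of all promoters. The retinoid half-site was in 4 of the 56, 7.14% against 14.0% of all, and in 0 of the 15 rising ones. A CCAAT box was in 23.2% against 33.8%, an AP-1 site in 3.57% against 6.75%, the heat shock core in 1.79% against 6.69% and a GATA site in 7.14% against 9.99%. The direct repeat was in none of the 56 and in 3 of all 32851 promoters. A match of letters is not a bound site.

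Among the integrins above the filter, Itgb1, Itgb5 and Itgav rose, and Itga3 and Itga9 fell. Of the 8 integrin names kept, 3 rose, 2 fell and 3 were not called, beside 25.7% rising and 26.8% falling of all genes kept. Without the filter, 5 of the 22 rose and 5 fell, beside 25.9% and 22.1% of all symbols. Itgb1 (chr8:131209553-131257479 in mm9, plus strand), the β subunit shared by most matrix-binding integrins, had log2 values of 11.61, 12.06, 13.05, 13.87, 13.78 and 13.81 on days 0 to 5. Its level thus climbed until day 3 and then stayed between 13.78 and 13.87. The day 5 value stood on 12023 reads, against 1627 on day 0, a 4.60-fold difference in normalized value (95% counting interval 2.13 to 2.28 log2 units). Its slope was 0.49 ± 0.082 log2 units a day (SE, limma adjusted p = 0.0049).

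Itgav, the α subunit of vitronectin receptors that can also release active TGF-β, was the integrin with the largest slope. Its log2 values were 8.48, 9.65, 10.49, 11.21, 11.78 and 12.04, higher on each day than on the day before. On day 5 it had 3510 reads, against 186 on day 0, and its normalized value was 11.7-fold higher. The slope was 0.71 ± 0.064 (limma adjusted p = 0.0019). Its partners rose too. Itgb5, which pairs with Itgav, had 9.02, 8.78, 9.73, 10.13, 10.49 and 11.12, with a slope of 0.46 ± 0.057 (limma adjusted p = 0.0029). Itgb3, the platelet and endothelial partner, was below the filter, and in the fit without it rose by 0.34 a day (limma adjusted p = 0.0051), with 282 reads on day 5 against 47 on day 0. Itga8, another RGD-binding subunit and the nephronectin receptor of the kidney, had 25, 50, 117, 58, 99 and 140 reads on days 0 to 5. Its log2 values were 5.59, 6.43, 7.69, 6.85, 6.77 and 7.39, and it was not called without the filter (slope 0.26, limma adjusted p = 0.128). The name-matched Itgb1bp1 and Itgb3bp lay between 7.87 and 8.45 and between 7.32 and 7.48 on days 0 to 5, and neither was called.

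Itga3 and Itga6 encode α subunits of laminin receptors. Itga3 had log2 values of 12.26, 13.51, 12.66, 12.20, 11.26 and 11.22 on days 0 to 5. It was highest on day 1, 2.37-fold above day 0, and on day 5 it was 2.06-fold below day 0. Its slope of −0.35 ± 0.12 passed the test (limma adjusted p = 0.0432), but not under quantile normalization or without day 1, 2, 3, 4 or 5, when the slope was between −0.26 and −0.36 and the adjusted p between 0.0567 and 0.153. Itga6, a marker gene of several stem cell types, had 11.76, 11.78, 10.63, 10.98, 11.81 and 11.58. It was lower on days 2 and 3 than on the days around them, and its slope of −0.014 was not called (limma adjusted p = 0.92). Itga5, the fibronectin receptor subunit, had 10.81, 10.96, 11.16, 11.53, 11.32 and 11.34, and its slope of 0.12 missed the threshold (limma adjusted p = 0.0519).

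Per transcript length, which allows levels of different genes to be compared, the α subunits changed their order, while their sum was highest on day 1 and nearly level from day 2. The 15 α subunits summed to 2574, 4051, 2726, 2706, 2662 and 2635 normalized reads per kb on days 0 to 5. Itga3 made up 39.2% of this sum on day 0, 58.8% on day 1 and 18.6% on day 5. Itgav made up 1.96% on day 0, 7.43% on day 2 and 22.5% on day 5. On day 5 Itga6 with 27.5%, Itgav with 22.5%, Itga5 with 22.3% and Itga3 with 18.6% lay close together. The 5 β subunits summed to 1330, 1372, 2426, 3986, 3890 and 4219 per kb, with Itgb1 at 80.9% on day 5 and 55.8% on day 0. The ratio of Itgb1 to Itgav per kb was 5.76 on day 5 and 14.7 on day 0.

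**Figure D2:**
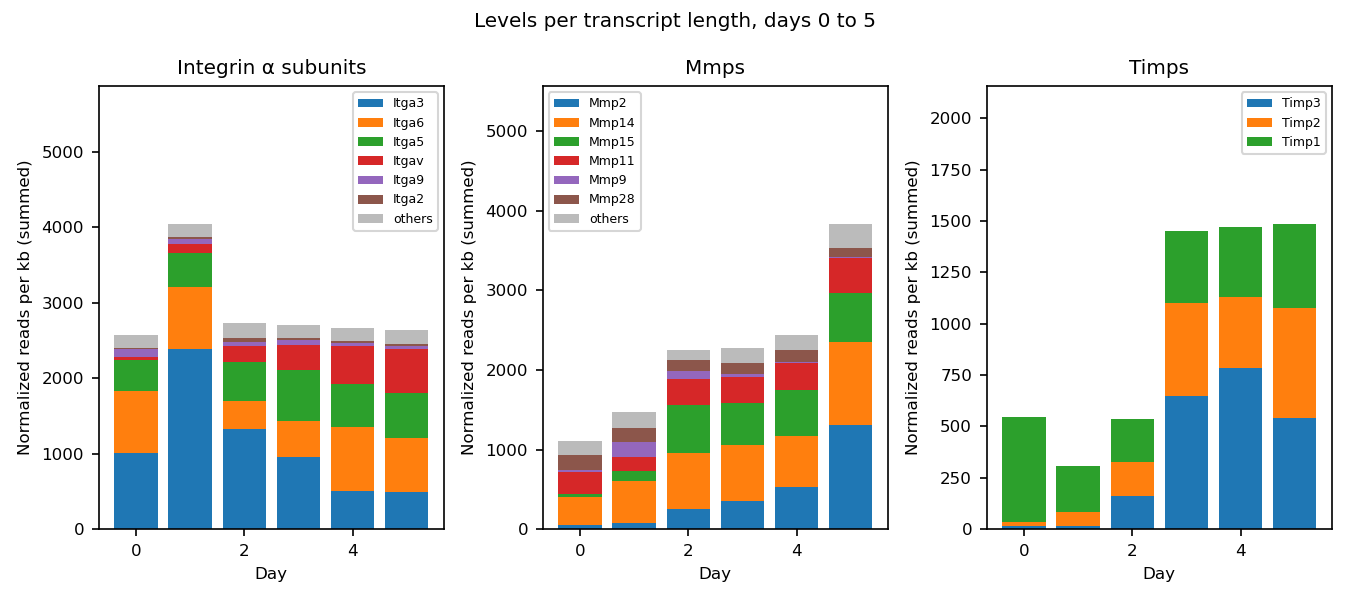
Stacked bars of normalized reads per kb of transcript on days 0 to 5, 1 library a day, for the integrin α subunits, the Mmps and the Timps, with further genes of a family in grey. Itga3 shrinks and Itgav grows within an α subunit sum of 2635 per kb on day 5 and 2574 on day 0, while the Mmp and Timp sums grow to 3840 and 1487 per kb on day 5.

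Of the 7 α subunits known from leukocytes or related to them, Itga9 fell among those kept, and Itga9 and Itgam fell without the filter; the β subunits Itgb7 and Itgb4 also fell without it. Itgb7, a β subunit of lymphocyte homing receptors, had log2 values of 9.77, 7.98, 6.90, 5.99, 6.29 and 6.54. It had 78 reads on day 5, against 455 on day 0, 9.38-fold fewer, and fell by 0.63 a day in the fit without the filter (limma adjusted p = 0.0221). It held 0.82% of the summed β subunit level per kb on day 5, against 24.5% on day 0, when it was next to Itgb1. Itgb4, which joins Itga6 in hemidesmosomes, had 9.07, 9.31, 9.08, 7.93, 7.99 and 7.80 and fell without the filter (slope −0.33, limma adjusted p = 0.0143); its locus overlaps Galk1 on the opposite strand. Itga9, a receptor subunit for tenascin and VCAM, had 9.48, 8.81, 8.75, 8.82, 8.10 and 8.12 and fell by 0.25 ± 0.054 a day (limma adjusted p = 0.0096). Without day 0 its slope was −0.20 and not called (limma adjusted p = 0.0627). The 3 collagen-binding subunits Itga1, Itga2 and Itga11 stayed low, at 17 to 120 reads on days 0 to 5. Of these, Itga1 rose in the fit without the filter (slope 0.39, limma adjusted p = 0.0237), and its locus overlaps Pelo on the same strand. Itgal, Itgam, Itgax, Itgad and Itgae, which are typical of leukocytes, had 28 to 108 reads on those days, and of these Itgam fell without the filter (slope −0.21, limma adjusted p = 0.0483). Itga4, the usual partner of Itgb7, had 70 to 172 reads and was not called (limma adjusted p = 0.225). Leukocyte and platelet markers were 3 of 12 listed, summed to 268 normalized reads on day 5 and 4856 on day 0, and the larger sum was mostly Laptm5. Without the filter Laptm5 and Coro1a fell (slopes −1.37 and −0.60, limma adjusted p = 0.0024 and 0.0151) and Lcp1 rose (slope 0.83, limma adjusted p = 0.0032). Their part in the Itgb7 difference was not tested.

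**Figure D3:**
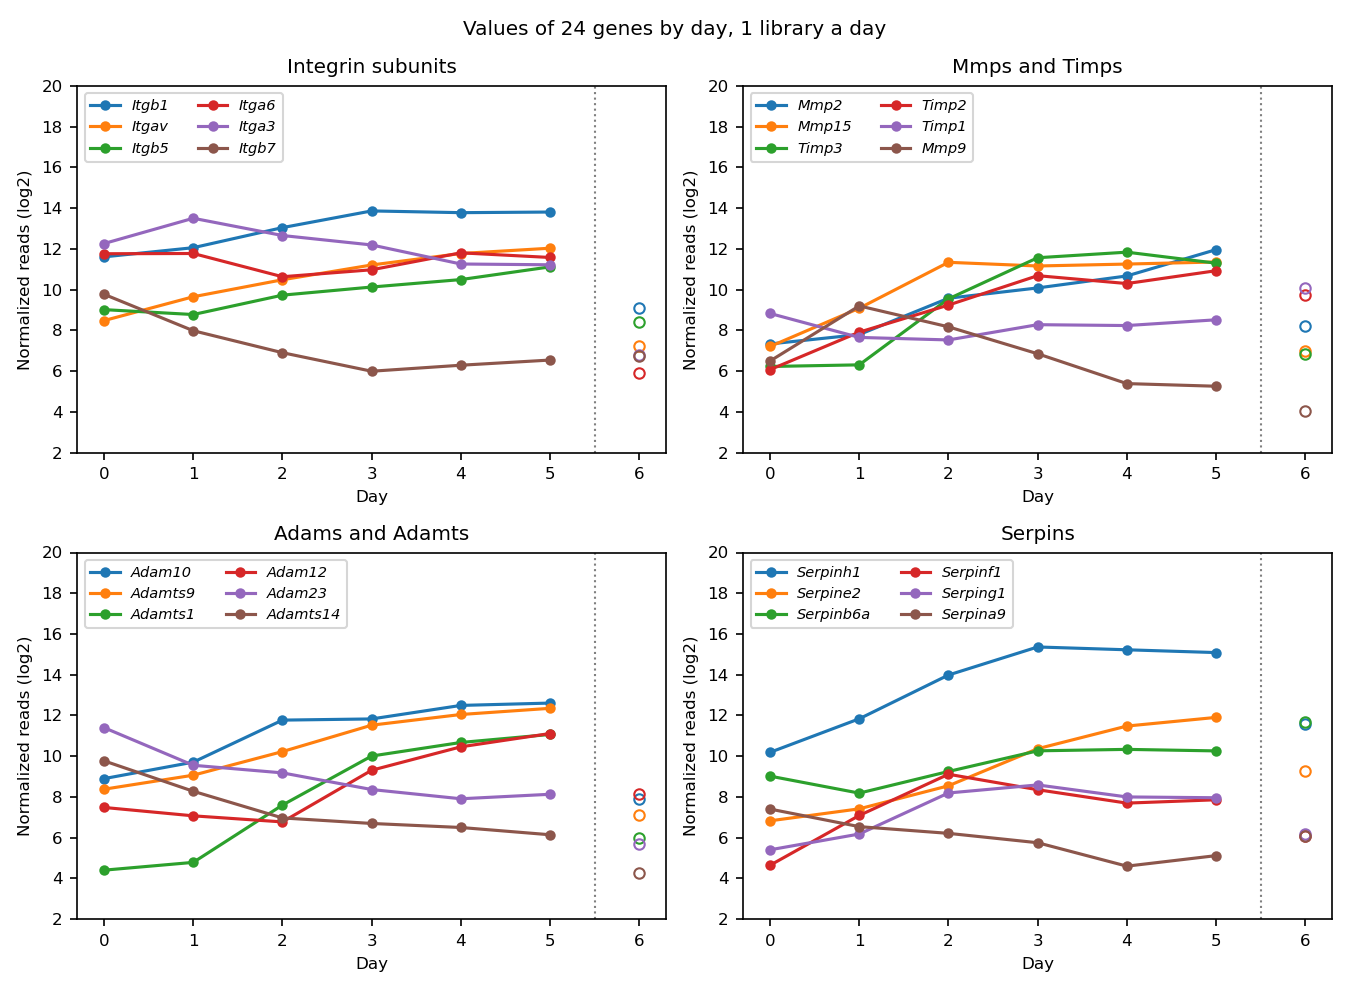
Log2 normalized reads of 24 genes by day, 1 library a day, filled points joined over days 0 to 5 and open points for day 6. Itgav, Adam10, Mmp2 and Serpine2 climb through day 5, Itgb1, Timp3 and Serpinh1 level off near day 3, Mmp9 peaks on day 1, and Itgb7, Adam23 and Adamts14 go down.

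Of the 12 Adams, 8 were kept, of which 5 rose, 1 fell and 2 were not called, beside 25.7% rising and 26.8% falling of all genes kept. Without the filter 5 rose and 3 fell, beside 25.9% and 22.1% of all symbols. Adam10, the protease that sheds Notch and cadherins, had log2 values of 8.90, 9.71, 11.77, 11.83, 12.49 and 12.61. It stood on 5216 reads on day 5, against 248 on day 0, a 13.1-fold difference in normalized value. It rose by 0.77 ± 0.12 a day (limma adjusted p = 0.0038). Adam17, the protease that releases TNF and EGF receptor ligands, had 10.23, 10.38, 10.41, 10.50, 10.72 and 10.69. Its small slope of 0.097 was called (limma adjusted p = 0.0357), but not without day 0, 1, 3, 4 or 5 (0.086 to 0.11, adjusted p 0.0609 to 0.134), nor under quantile normalization, median-centring or a length correction (0.028 to 0.077), and the gene overlaps Iah1 on the opposite strand. Per kb, Adam10 held 36.7% of the summed level of the family on day 5 and 5.96% on day 0, while Adam17 held 10.1% on day 5 and 15.6% on day 0.

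Adam12, which is known from fusing muscle cells and mesenchyme, had 7.48, 7.07, 6.77, 9.31, 10.46 and 11.11. It was flat or lower until day 2 and had 1851 reads on day 5, against 93 on day 0; its slope was 0.88 ± 0.18 (limma adjusted p = 0.0082; 0.78 and 0.0548 under quantile normalization). Adam19, its relative, had 10.20, 8.27, 9.69, 11.88, 11.55 and 11.70, lowest on day 1. Its slope of 0.56 missed the threshold (limma adjusted p = 0.0570) and passed it without day 0 (0.87, adjusted p = 0.0288). Adam9 and Adam15, widely expressed sheddases, rose by 0.26 and 0.36 a day (limma adjusted p = 0.0170 and 0.0126), and neither was called without day 0 (0.17 and 0.32, adjusted p 0.112 and 0.0752).

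Adam23, a protein with no protease activity that serves as a receptor at synapses, was the Adam that fell. Its log2 values were 11.40, 9.55, 9.18, 8.36, 7.91 and 8.13, so most of the decline had occurred by day 3. It had 234 reads on day 5, against 1405 on day 0, 9.65-fold fewer, and its slope of −0.63 ± 0.12 was the steepest decline among the 29 genes (limma adjusted p = 0.0061). Adam22, likewise inactive as a protease and known from synapses, lay between 10.20 and 10.71 on days 0 to 5, with a slope of 0.029 (limma adjusted p = 0.61) whose sign changed with median-centring, with a length correction and without day 1. Adam28 and Adam33 fell in the fit without the filter, by 0.33 and 0.19 a day (limma adjusted p = 0.0070 and 0.0470). Adam8, known from leukocytes, and Adam11, a neural gene without protease activity, had 72 to 131 reads on days 0 to 5 and were not called.

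The Adamts family was mostly low on day 0 and held the largest single increase. Of these, 2 of the 18 genes were kept, and both rose, beside 25.7% of all genes kept. Without the filter 11 rose and 1 fell, beside 25.9% and 22.1% of all symbols. On day 5, 8 of the 18 were at least 4-fold higher than on day 0, beside 12.7% of all symbols. At least 4-fold lower was 1 of the 18, beside 4.66% of all symbols. Adamts1 (chr16:85794072-85803360, minus strand), a protease of the proteoglycans aggrecan and versican, had log2 values of 4.40, 4.78, 7.60, 10.01, 10.67 and 11.07. In reads these were 11, 16, 110, 516, 1481 and 1793. Day 5 was 101-fold above day 0 in normalized value, with a 95% counting interval of 5.82 to 7.67 log2 units that reflects the 11 reads of day 0. The slope without the filter was 1.53 (limma adjusted p = 0.0027). Adamts9, a related proteoglycan protease, started higher, with 8.38, 9.07, 10.22, 11.52, 12.05 and 12.35, and rose by 0.86 ± 0.071 a day (limma adjusted p = 0.0018). Per kb it held 34.3% of the family sum on day 5 and 10.1% on day 0; Adamts1 held 17.5% on day 5. Adamts15, also a proteoglycan protease, had 5.19, 6.03, 10.16, 9.26, 8.99 and 9.03. It was highest on day 2, with 649 reads against 38 on day 1, and its straight-line slope of 0.78 was not called (limma adjusted p = 0.0631).

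The procollagen N-proteinases differed among themselves. Adamts14 had 9.77, 8.28, 6.97, 6.70, 6.50 and 6.14, lower on each day than on the day before; it had 59 reads on day 5, against 454 on day 0, 12.4-fold fewer (slope without the filter −0.68, limma adjusted p = 0.0061). Adamts2, which acts on the same kind of substrate, had 180 reads on day 5 and 14 on day 0, and rose by 0.60 a day without the filter (limma adjusted p = 0.0088). Adamts3 had 288 reads on day 5 and 39 on day 0 and also rose (0.46, limma adjusted p = 0.0054). Adamts10, a protein of fibrillin microfibrils, rose by 0.35 a day and was 4.08-fold higher on day 5 than on day 0 (limma adjusted p = 0.0057). Adamts7, a protease of cartilage matrix proteins, rose by 0.65 without the filter (limma adjusted p = 0.0119). Adamts13, the blood protease of von Willebrand factor, had 19 to 57 reads on days 0 to 5 and was not called (slope −0.26, limma adjusted p = 0.0877).

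The remaining Adamts genes had lower counts. Adamtsl4, a protein of the family without a protease domain that binds fibrillin, had 49, 118, 201, 247, 509 and 561 reads on days 0 to 5 and rose without the filter by 0.54 a day (limma adjusted p = 0.0038). Adamtsl1, also without a protease domain, had 93, 53, 56, 71, 222 and 561 reads, with most of its increase after day 3; it was not called (slope 0.41, limma adjusted p = 0.0718). Adamts5, the proteoglycan protease known from cartilage, had 23, 17, 7, 39, 92 and 133 reads and was not called either (slope 0.49, limma adjusted p = 0.0972). Adamts12, Adamts6, Adamts16 and Adamts20 rose without the filter, with slopes of 0.46, 0.29, 0.24 and 0.22 and at most 233 reads on any of these days. Adamts8 and Adamts17 had 52 to 156 reads and were not called.

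Among the 10 Mmps, 5 were kept, of which 3 rose, 1 fell and 1 was not called, beside 25.7% rising and 26.8% falling of all genes kept. Without the filter 5 rose and 1 fell, beside 25.9% and 22.1% of all symbols. Mmp2 (chr8:95351226-95377319, plus strand), a gelatinase that digests basement membrane collagen, had log2 values of 7.33, 7.80, 9.58, 10.08, 10.67 and 11.96. It was higher on each day than on the day before, with 3341 reads on day 5 against 84 on day 0. The difference in normalized value was 24.7-fold. Its slope was 0.92 ± 0.071 (limma adjusted p = 0.0018). Mmp14, the membrane protease that activates the Mmp2 proenzyme with the help of Timp2, had 9.86, 10.44, 10.85, 10.83, 10.70 and 11.41. It was already high on day 0 and rose by 0.24 ± 0.057 a day (limma adjusted p = 0.0136), which was not called without day 0 (0.18, adjusted p = 0.0919) or without day 5 (0.21, adjusted p = 0.0750). Mmp15, another membrane-bound Mmp, had 7.21, 9.09, 11.34, 11.16, 11.26 and 11.36. It had reached its plateau on day 2, with 1474 reads against 77 on day 0, and its slope of 0.77 ± 0.20 (limma adjusted p = 0.0178) was not called without day 0 (0.45, adjusted p = 0.108). Mmp16, a further transmembrane Mmp, came up later, with 8, 22, 20, 44, 203 and 257 reads on days 0 to 5, and rose without the filter by 0.87 a day (limma adjusted p = 0.0027). Mmp23, a membrane Mmp of unusual domain structure, had 11, 14, 32, 76, 112 and 201 reads. Its log2 values on days 3, 4 and 5 were 7.24, 6.95 and 7.91, and it rose likewise by 0.74 (limma adjusted p = 0.0037).

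Mmp9, the other gelatinase, followed a different course from Mmp2. Its log2 values were 6.50, 9.20, 8.17, 6.85, 5.39 and 5.26, highest on day 1 and next highest on day 2, and its recovered reads were 47, 342, 164, 58, 38 and 32. Day 1 was 6.52-fold above day 0 (95% counting interval 2.26 to 3.18 log2 units), and the straight-line slope of −0.54 without the filter was not called (limma adjusted p = 0.114). Mmp25, a membrane-anchored Mmp of leukocytes, also had its highest value on day 1, with 139 reads against 35 on day 0, and its lowest on day 3, with 7 reads. Mmp17, anchored to the membrane by a lipid, fell without the filter (slope −0.26, limma adjusted p = 0.0207). Mmp28, known from epithelia, had a slope of −0.11 that was called (limma adjusted p = 0.0494) but not without the filter or without day 0, 1, 3, 4 or 5 (−0.0997 to −0.13, adjusted p 0.0683 to 0.219). Mmp11, a stromal Mmp, had 9.27, 8.62, 9.51, 9.50, 9.61 and 9.96 and was not called (slope 0.18, limma adjusted p = 0.0587), except without day 0 (0.28, adjusted p = 0.0360).

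The Timps changed their order. On days 0, 1, 2 and 5, Timp1 made up 93.7%, 73.0%, 38.8% and 27.6% of the summed Timp level per kb. Timp2 and Timp3 each held 36.2% on day 5, against 3.41% and 2.94% on day 0. Timp2 (chr11:118162374-118216725, minus strand), which inhibits Mmp2 and also helps Mmp14 activate it, had log2 values of 6.07, 7.91, 9.24, 10.69, 10.30 and 10.93. It had 1632 reads on day 5, against 35 on day 0, 29.0-fold more, and rose by 0.94 ± 0.15 a day (limma adjusted p = 0.0040). Timp3 (chr10:85763156-85812250, plus strand), which binds to matrix and inhibits Adam and Adamts proteases as well, had 6.23, 6.31, 9.55, 11.57, 11.84 and 11.30. It was level on day 1 and gained most between day 1 and day 3, and day 5 was 33.7-fold above day 0. Its slope of 1.26 ± 0.23 was the largest of the 29 genes (limma adjusted p = 0.0065). Timp1 had 8.83, 7.65, 7.53, 8.28, 8.24 and 8.52, lower on each of days 1 to 5 than on day 0, and lowest on day 2. Its slope of 0.027 was not called (limma adjusted p = 0.85); it changed sign under quantile normalization and median-centring and without day 1 or day 5, and was called without day 0 (0.24, adjusted p = 0.0374). Timp3 overlaps Syn3 and Timp1 overlaps Syn1, both on the opposite strand; how the counting treated strand is not known here, so reads of such pairs cannot be told apart. On days 0, 1, 3 and 5 the summed Timp level per kb was 0.49, 0.21, 0.64 and 0.39 times that of the Mmps.

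**Figure D4:**
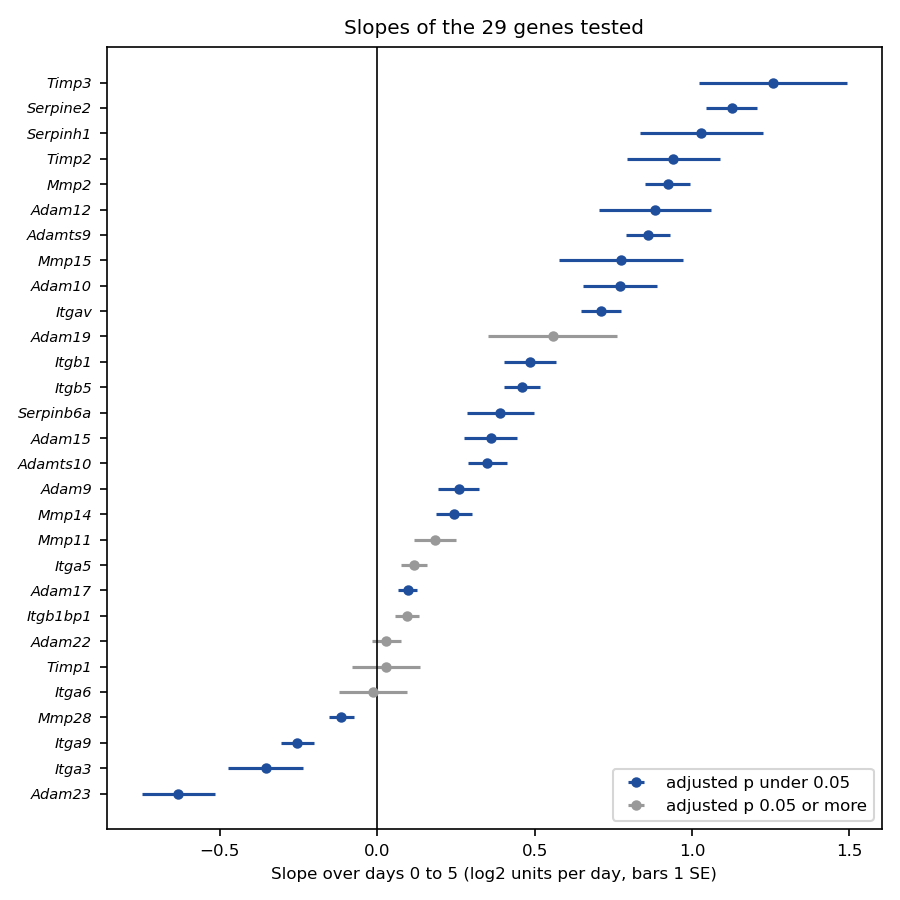
Slope over days 0 to 5 in log2 units a day with bars of 1 SE for the 29 genes above the filter, sorted, with calls at an adjusted p under 0.05 in blue. Timp3 at 1.26 and Serpine2 at 1.13 lead, and Adam23 at −0.63 is the steepest decline.

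All 3 serpins that were kept rose, beside 25.7% of all genes kept. Without the filter 6 of the 12 rose and 1 fell, beside 25.9% and 22.1% of all symbols. Serpinh1 (chr7:106493884-106501749, minus strand), the collagen chaperone, was the most abundant of the 77 genes per kb on day 5. Its log2 values were 10.19, 11.83, 13.98, 15.36, 15.22 and 15.09, so that it reached its highest value on day 3. It had 29095 reads on day 5, against 607 on day 0. The difference in normalized value was 29.8-fold, with a 95% counting interval of 4.78 to 5.02 log2 units. Its slope was 1.03 ± 0.19 (limma adjusted p = 0.0067). Serpinh1 alone made up 37.7% of the reads of the 77 genes on day 3 and 3.27% on day 0. Per kb it had 15572 normalized reads on day 5, next to 3415 for Itgb1, 1858 for Serpine2, 1354 for Adam10 and 1308 for Mmp2. On day 0 the order was different, with Itga3 at 1008, Itga6 at 822, Itgb1 at 743, Serpinh1 at 522 and Timp1 at 510.

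Serpine2 and Serpinf2 both rose, the one above the filter and the other in the fit without it. Serpine2, a cell-bound inhibitor of thrombin and urokinase, had 6.83, 7.41, 8.55, 10.37, 11.48 and 11.90. It was higher on each day than on the day before, with 3203 reads on day 5 against 59 on day 0. Its normalized value was 33.8-fold higher on day 5 (slope 1.13 ± 0.081, limma adjusted p = 0.0018). Serpinf2, the plasmin inhibitor, had 9, 22, 58, 57, 189 and 89 reads and rose without the filter (0.59, limma adjusted p = 0.0218).

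Serpinf1, a secreted serpin that does not inhibit proteases and limits vessel growth, was an early gene. Its log2 values were 4.64, 7.09, 9.11, 8.35, 7.69 and 7.86, from 13, 79, 314, 164, 188 and 194 reads. Day 1 was 5.45-fold above day 0, the highest value came on day 2, and the straight-line slope of 0.49 was not called (limma adjusted p = 0.159). Serping1, the inhibitor of the first complement component, had 208 reads on day 5 and 22 on day 0 and rose without the filter (0.53, limma adjusted p = 0.0420). Serpinb6a, an intracellular inhibitor, had 9.02, 8.19, 9.25, 10.26, 10.33 and 10.26 and rose by 0.39 a day (limma adjusted p = 0.0221), which was not called without day 4 (0.37, adjusted p = 0.0673). Serpinb6c, a related gene, rose without the filter (0.52, limma adjusted p = 0.0385). How reads that match related genes were counted is not known here, so both are uncertain. The same holds for Serpinb9b and Serpina3g, neither of which was called. Serpina9, a serpin of germinal centre B cells, fell by 0.51 a day without the filter (limma adjusted p = 0.0085), with 29 reads on day 5 and 88 on day 0. Serpini1, the neural inhibitor of the tissue plasminogen activator, had 37 to 96 reads and was not called (limma adjusted p = 0.331).

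Genes that work with these families were looked at as lists. Of 21 integrin ligand genes kept, 16 rose, 0 fell and 5 were not called; 20 of all 28 rose and 1 fell without the filter. The type IV collagens Col4a1 and Col4a2, the network of basement membrane, each rose by 1.15 a day (limma adjusted p = 0.0069 and 0.0060). The laminin chains Lamb1-1 and Lama1 rose by 0.97 and 0.86 (limma adjusted p = 0.0191 and 0.0366), while Fn1, the ligand of the Itga5 receptor, lay between 14.15 and 14.70 and was not called (limma adjusted p = 0.325). Of 26 focal adhesion genes kept, 7 rose, 1 fell and 18 were not called. Parva, an actin-binding partner of the integrin-linked kinase, rose by 1.01 a day (limma adjusted p = 0.0041), and Ilk itself by 0.40 (limma adjusted p = 0.0127). The talin gene Tln1, which switches integrins on, was not called (limma adjusted p = 0.275), and Actn4, an actin crosslinker, fell by 0.17 a day (limma adjusted p = 0.0116). The ligand list thus had 16 of 21 and the focal adhesion list 7 of 26 genes rising, beside 25.7% of all genes.

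Of all 7242 genes kept, 25.7% rose and 26.8% fell, and of all symbols without the filter 25.9% and 22.1%. Of 15 genes of the plasminogen system and of other proteases that serpins inhibit, 9 were listed. Without the filter 2 of these 9 rose and 0 fell. Among the 5 kept, 1 rose. It was Plat, the tissue plasminogen activator, a protease that Serpine2 can inhibit, with log2 values of 5.75, 7.40, 10.85, 12.43, 12.29 and 12.39 and a slope of 1.41 (limma adjusted p = 0.0058). Among 14 kept regulators and partners of metalloproteases, 8 rose, 1 fell and 5 were not called. Without the filter 10 of 19 rose and 2 fell. Reck, a membrane inhibitor of Mmps and of Adam10, rose by 0.67 a day (limma adjusted p = 0.0057), and Bmp1, a procollagen C-proteinase, by 0.74 (limma adjusted p = 0.0048). Pcsk6, a convertase, fell by 0.44 (limma adjusted p = 0.0118). Of 8 kept genes for membrane proteins that Adams shed, 5 rose, 1 fell and 2 were not called. Without the filter 6 of 12 rose and 2 fell. App and Cdh2, the neural cadherin, rose by 1.44 and 1.06 a day (limma adjusted p = 0.0027 and 0.0078), and Cdh1, the epithelial cadherin, fell by 0.57 (limma adjusted p = 0.0025).

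Markers of differentiated cell types moved over the same days. Of the 11 extraembryonic endoderm markers, 10 were listed, and 4 of the 6 kept rose, beside 25.7% of all genes kept. Without the filter 6 of 10 rose and 0 fell, beside 25.9% and 22.1% of all symbols. Sox7, Sox17, Cubn and Amn were not called, and Amn had log2 values of 5.93 on day 5 and 6.43 on day 0. The summed level of these markers was 7775 normalized reads on day 0, highest at 127876 on day 3 and 95904 on day 5. Sparc was the largest of them on days 0, 3 and 5, with log2 values of 12.63, 16.03 and 16.09. Of the 13 fibroblast and smooth muscle markers, 12 were listed, and all 8 that were kept rose, beside 25.7% of all genes kept. A gene can pass the filter through its high days; without it 10 of the 12 rose and 0 fell, beside 25.9% and 22.1% of all symbols. Thy1, with log2 values of 4.51 on day 5 and 7.76 on day 0, was not called (limma adjusted p = 0.30), and Pdgfrb was not called either. The summed fibroblast and smooth muscle level was 38454 on day 5 and 1560 on day 0. No listed marker of either kind was at 0 reads in any library, because every listed transcript had at least 1 read in each. Their part in the changes of the integrin, protease and serpin genes was not tested.

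The step between day 1 and day 2 was the most frequent largest step, among these genes as among all symbols. The largest step between neighbouring days fell between day 1 and day 2 for 29 of the 77 genes, 37.7% against 38.7% of all symbols. It lay between day 0 and day 1 for 15 genes, 19.5% against 27.5%, and between day 2 and day 3 for 19, 24.7% against 19.6%. Among the 29 genes kept, 15 had their largest step between day 1 and day 2, 51.7% against 42.0% of the 7242. Of the 40 genes with a range of at least 4-fold over days 0 to 5, 20 were highest on day 5 and 21 were lowest on day 0. The like counts were not made over all symbols. A peak on an inner day at least 2-fold above both ends was seen in 6 of the 77 genes, among them Adamts15, Itga3, Mmp25, Mmp9 and Serpinf1, which is 7.79% against 3.05% of all symbols. A trough of that size was seen in Adam19, Adamts5, Mmp25 and Serpinb9b, 5.19% against 2.06%. A curved term on day was called in none of the 29 genes and in 3 of all 7242 (0.0414%); at an unadjusted p under 0.05, limma found 2 genes bending upward and 8 downward, against 19.9% of all genes in either direction. Without day 0 the downward bends of Serpinh1 and Timp3 were called (limma adjusted p = 0.0271 and 0.0194). Without day 1 Serpinh1 was called downward and Adam23 upward (limma adjusted p = 0.0175 and 0.0370).

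After 1 day, few of the genes had moved by 4-fold or more. The median size of the difference from day 0, in either direction, was 0.55 log2 units for the 77 genes and 0.31 for all symbols. On day 1, 2 of the 77 were at least 4-fold higher than on day 0, Mmp9 and Serpinf1, which is 2.60% against 2.22% of all symbols. None was at least 4-fold lower, against 1.11% of all symbols. The next in size, by normalized value, were Adam19 at 3.83-fold lower with 179 against 614 reads and Mmp15 at 3.68-fold higher with 316 against 77. After them came Adam23 at 3.60-fold lower with 436 against 1405, and Timp2 at 3.58-fold higher with 140 against 35. Serpinh1 was 3.13-fold higher, with 2121 reads on day 1 against 607 on day 0.

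Day 6 is set apart because its values moved with transcript length. Its library was the smallest, and the 77 genes made up 0.16% of the reads of all symbols on day 6, against 0.78% on day 5. On day 6, 37 of the 77 genes were at least 4-fold lower than on day 5, 48.1% against 33.2% of all symbols, and 2 were at least 4-fold higher, 2.60% against 6.98%. The median difference from day 5 was −1.94 log2 units for the 77 genes and −1.06 for all symbols. The transcripts of these genes are long, with a median of 4055 nt against 2940 nt over all symbols. The 9 genes with transcripts of up to 2000 nt had a median of 0.99, and the 68 longer ones had a median of −2.35. Across the 77 genes the difference had a Spearman rho of −0.40 with length, a description over genes, which are not independent replicates.

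Itga6 had 22 reads on day 6, against 2561 on day 5, Adamts9 had 50 against 4364, and Adamts15 had 4 against 437. Adamts5 had 1 read on day 6 and 133 on day 5. Going the other way, Adam33, with a transcript of 3107 nt, had 421 against 87 reads, and Itgb3bp had 298 against 136. Their normalized values were 11.1-fold and 5.03-fold higher on day 6. Serpinb6a, with a transcript of 1437 nt, had log2 values of 11.66 on day 6 and 10.26 on day 5, and Timp1, with 893 nt, had 10.07 and 8.52. With day 6 in the fit, Serpinb6a was the gene that rose (slope 0.47, limma adjusted p = 0.0461, against a background of 1.6% of genes rising) and Adam23 the gene that fell (slope −0.76, limma adjusted p = 0.0294, against 3.78% falling). The part of transcript length in the day 6 values of these genes was not tested beyond the rho above.

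**Figure D5:**
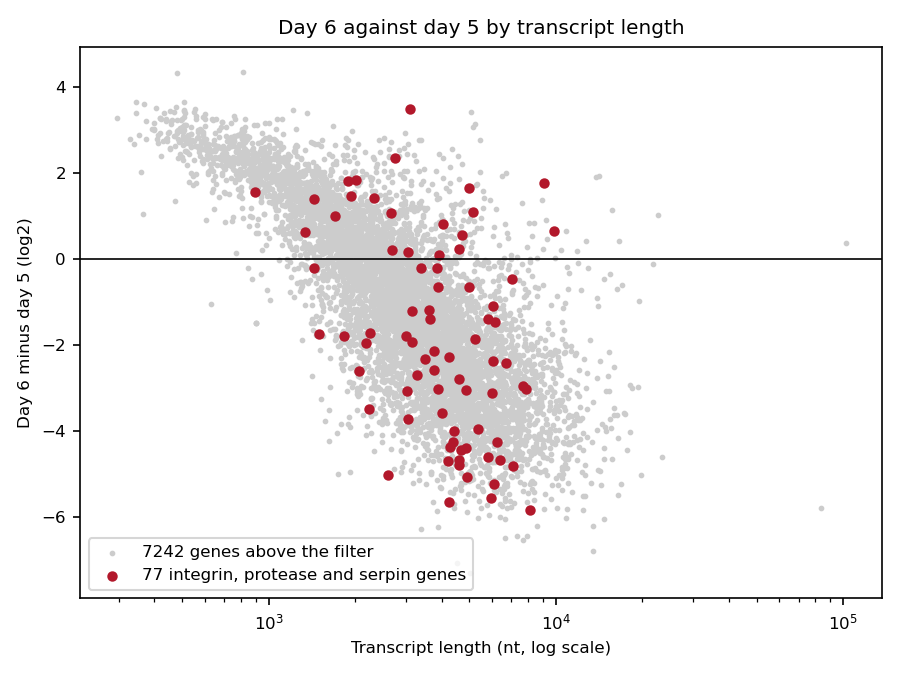
Difference of day 6 from day 5 in log2 units against transcript length on a log axis, with the 7242 genes above the filter in grey and the 77 integrin, protease and serpin genes in red. The difference goes down with length, and most of the 77 lie below 0, with Adam33 at 3.47 and Itgb3bp at 2.33 the highest.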

How the data were processed

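Ribosomal-RNA-depleted total RNA of 7 libraries, 1 for each of days 0 to 6, was sequenced from kits that keep strand, per the labels' protocols. The submitters' processing notes name BWA 0.7.3 and mm9. Counting, use of strand, annotation and scaling followed methods not given in the sources used here. Log2 values per RefSeq transcript were deposited by the authors. Taken out of the log, 100% of the values up to 1000 reads were whole to within 0.05 reads in each library, so reads could be recovered; no listed transcript had fewer than 1 read in a library. Levels per kb were obtained by dividing by the listed transcript length. The highest-mean row of each symbol was used.

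A straight line on day, and separately a line with a term of day squared, was fitted to the log2 values of days 0 to 5 with limma (version 3.58.1, under R 4.3.3), using empirical Bayes with a mean trend. Genes with a mean over the 7 libraries above the 40th percentile were kept, p-values were adjusted by Benjamini-Hochberg over all of them, and 0.05 was the threshold. The days are not replicates, and p-values measure the spread of these libraries about a line. Single days were compared by size only, at 4-fold, with Clopper-Pearson intervals of the reads at 95%. The code was tested on simulated data. Promoters came from RefSeq (GRCm38.p6), and no position was moved between builds.

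The genes named were the largest called slopes in each direction, the largest differences between days with at least 50 reads in the higher library, every Timp and fixed examples, and of each related list up to 4 genes with the largest called slopes. Others, among them Itgb3, Itgb4, Adam19, Adam22, Adamts2, Adamts3, Mmp16, Mmp25, Serpinf2, Serping1, Ilk, Fn1 and Tln1, were chosen after their values were seen. Of the 77 genes, 1 is not reported here by name. The gene families and lists were chosen with earlier results of these data known. Alternatives were other filters, scalings, a pseudocount of 16, a length correction, other rows per symbol and leaving out each library.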

Additional observations from a re-analysis of the deposited data

How the results depend on the processing

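The number of genes called rising, 18 of the 29 tested, was 1 of 29 with all 7 libraries, 34 of 77 without the filter and 16 to 18 of 29 without 1 library. The number called falling, 4 of 29, was 1 of 29 with all 7 libraries, 11 of 77 without the filter, 1 of 19 with the filter at the 60th percentile and 2 to 3 of 29 without 1 library. Curved terms, 0 in either direction, came to 0 to 1 upward and 0 to 2 downward without 1 library. Over days 0 to 5, the slopes that changed sign were not called in the fit reported: Adam22 at −0.0018 with median-centring, −0.090 with a length correction and −0.0077 to 0.061 without 1 library (below 0 without day 1), Itga6 at 0.0046 with quantile normalization and −0.071 to 0.078 without 1 library (above 0 without day 0, 1 or 3), Itgb1bp1 at −0.0073 with quantile normalization, and Timp1 at −0.033 with quantile normalization, −0.0034 with median-centring and −0.056 to 0.24 without 1 library (−0.032 without day 1, −0.056 without day 5, and called at 0.24 without day 0). With day 6 in the fit the slopes turned to −0.35 for Adam17, −0.031 for Adam19, −0.17 for Adam9, −0.37 for Itga5, −0.12 for Itgb1, −0.011 for Mmp11, −0.31 for Mmp14 and 0.044 for Mmp28, none of them called.

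For day 1 against day 0, the 2 genes at least 4-fold higher became 1 with quantile normalization, 1 with a pseudocount of 16, 0 with the filter and 13 at 2-fold, and the 0 lower became 2 with quantile normalization, 2 with median-centring, 3 with a length correction and 6 at 2-fold. For day 5 against day 0, the 24 higher became 13 with the filter and 38 at 2-fold, and the 4 lower became 1 and 12. For day 6 against day 5, the 2 higher became 13 with quantile normalization, 13 with median-centring, 14 with a length correction, 0 with the filter and 12 at 2-fold, and the 37 lower became 23, 22, 18 and 20 in the first 4 of these. The filters and fold limits differ by construction in the genes tested or the limit used; for the other settings the cause was not tested. No paired analysis was possible because each day had 1 library and the labels give no replicate numbers. Depth limits genes under 50 reads, which were 47 of the 77 on day 6 and 29 on day 0.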
